A study of Mus musculus with 10 samples.

Results

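The genes described here are the Fc gamma receptors and the chain that carries their signal: Fcgr1, Fcgr3 and Fcgr4 (activating receptors), Fcgr2b (the inhibitory receptor), Fcer1g (the shared signalling subunit), Syk (the kinase recruited to it) and Fcgrt (the neonatal Fc receptor). They were chosen by name as a gene family, with earlier results of these data known. They are 7 of the 36528 gene identifiers in the deposited counts, and all 7 were found and tested. The samples were tumour-associated macrophages purified from C57Bl/6 mice that carried MC-38 tumours, a colon carcinoma line from that strain. 5 libraries came from mice given an antibody against MerTK, the receptor tyrosine kinase by which macrophages take up apoptotic cells. The other 5 came from mice given an antibody against gp120, an HIV envelope protein absent from these mice. Polyadenylated RNA was sequenced 24 h after treatment. The sources used here give no antibody dose, isotype or Fc format, no method of purification, no age or sex of the mice, and no statement on pooling or on whether each library was a separate mouse. The p-values below therefore set the difference between groups against the variation between these libraries, and that variation may be technical.

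Fc gamma receptors bind the constant part of IgG on opsonised cells and immune complexes. In the mouse, the activating receptors reach the cell surface together with Fcer1g, whose tyrosine-based activation motif (ITAM) is phosphorylated by Src family kinases on cross-linking and then binds Syk, which leads to phagocytosis, oxidative burst and cytokine release. Fcgr2b carries an inhibitory motif (ITIM) instead and recruits the lipid phosphatase Inpp5d. The balance of activating to inhibitory receptors sets the threshold at which macrophages respond to antibody-coated targets, and interferons are known to induce Fcgr1.

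The libraries held 33159858 to 46108687 counted reads, and each of the 7 genes had 5008 to 107930 reads in each library, so counting error was small beside the spread between libraries. Macrophage markers were abundant: the summed level of 10 markers was 35851 to 42207 CPM (read counts scaled to library size) after anti-MerTK and 32759 to 43746 CPM after anti-gp120. Marker levels of other cells with Fc receptors were as follows. NK cells, which carry Fcgr3, had a summed marker level of 0.401 to 1.07 CPM after anti-MerTK and 0.153 to 1.76 CPM after anti-gp120, with Ncr1, Eomes and Klra8 under 0.1 CPM in all 10 libraries. The 6 B cell markers summed to 17.6 to 30.6 CPM after anti-MerTK and 19.8 to 40.2 CPM after anti-gp120. Most of that sum was Cd79b, a chain of the B cell receptor complex, while 3 of the 6, Pax5 among them, were under 0.1 CPM throughout. The summed level of 9 neutrophil markers was 65.4 to 88.4 CPM after anti-MerTK and 60.7 to 104.4 CPM after anti-gp120, with Ly6g and Camp under 0.1 CPM. Most of that sum was 1 gene, Csf3r, at 59.1 to 86.5 CPM after anti-MerTK and 57.6 to 102.7 CPM after anti-gp120. Monocyte markers summed to 383 to 644 CPM after anti-MerTK and 161 to 457 CPM after anti-gp120, ranges that overlap, and 1 of 7 tested, Plac8, rose (log2 fold change 2.37, edgeR adjusted p = 0.0346). Dendritic cell markers summed to 48.3 to 91.7 CPM after anti-MerTK and 24.6 to 63.6 CPM after anti-gp120, and endothelial markers to 9.999 to 12.01 CPM after anti-MerTK and 6.29 to 9.74 CPM after anti-gp120, with 0 genes of either list called in edgeR. Mertk itself averaged 78.9 ± 4.96 CPM after anti-MerTK and 91.1 ± 14.3 CPM after anti-gp120 (SD, n = 5 each), with a log2 fold change of -0.21 that missed the threshold (edgeR adjusted p = 0.263).

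The promoters of the 3 activating receptors are shown because these genes share a partner chain but 1 of them, Fcgr1, passed the treatment test. Each is the window from 250 bases before to 50 after the annotated start, from RefSeq on GRCm38.p6, and capitals mark matches on either strand to 3 motifs: TTCNNNGAA (GAS, the gamma-interferon activation site), a pair of GAAA with any 2 bases between them (ISRE, an interferon-stimulated response element) and GAGGAA (the core bound by PU.1, a myeloid factor). The windows lie at chr3:96293920-96294219 on the minus strand for Fcgr1, chr1:171018676-171018975 on the plus strand for Fcgr4 and chr1:171059354-171059653 on the minus strand for Fcgr3.
Fcgr1: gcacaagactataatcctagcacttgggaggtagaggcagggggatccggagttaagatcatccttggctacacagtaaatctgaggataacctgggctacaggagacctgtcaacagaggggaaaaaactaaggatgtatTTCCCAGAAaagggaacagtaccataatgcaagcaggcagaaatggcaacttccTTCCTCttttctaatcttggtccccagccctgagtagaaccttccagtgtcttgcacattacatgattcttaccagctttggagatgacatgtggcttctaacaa
Fcgr4: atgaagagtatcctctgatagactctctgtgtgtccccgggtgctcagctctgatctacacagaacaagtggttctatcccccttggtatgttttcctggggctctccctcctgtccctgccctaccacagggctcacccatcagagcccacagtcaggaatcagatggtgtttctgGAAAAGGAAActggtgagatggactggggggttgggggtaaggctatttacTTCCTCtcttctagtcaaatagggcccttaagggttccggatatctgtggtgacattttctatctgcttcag
Fcgr3: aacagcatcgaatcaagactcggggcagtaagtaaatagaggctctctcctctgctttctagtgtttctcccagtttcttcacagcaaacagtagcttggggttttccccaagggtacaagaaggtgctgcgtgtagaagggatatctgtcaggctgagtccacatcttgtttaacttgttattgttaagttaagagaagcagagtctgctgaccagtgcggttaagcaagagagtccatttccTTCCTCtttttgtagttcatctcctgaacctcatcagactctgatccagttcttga
The Fcgr1 window held 1 GAS match, TTCCCAGAA, from 109 to 101 bases before the start, and 1 PU.1 core 55 to 50 bases before it. A GAS match occurred in 8.29% of all 32817 RefSeq promoter windows of that length, and in none of the windows of the other 6 genes. The Fcgr4 window held 1 ISRE match, GAAAAGGAAA, 73 to 64 bases before the start, a motif found in 3.43% of all windows. The windows of all 3 activating receptors and 1 of those of Syk held a PU.1 core, as did 28.3% of all windows, and the windows of Fcgr2b, Fcer1g and Fcgrt had none of the 3 motifs. A match describes these letters and is not evidence of binding.

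Levels between genes were compared per transcript length, as the RPKM (reads divided by gene length and scaled by sequencing depth) deposited by the authors. Fcer1g stood highest, at 2597 ± 231 RPKM after anti-MerTK and 2305 ± 264 RPKM after anti-gp120 (SD, n = 5 each, as for all means here), rank 22 of the 36528 genes by mean RPKM in anti-gp120 libraries. Fcgr4 followed, at 1481 ± 296 RPKM after anti-MerTK and 1268 ± 405 RPKM after anti-gp120. Fcgr3 had 499 ± 89.8 RPKM after anti-MerTK and 589.7 ± 41.9 RPKM after anti-gp120, and Fcgr2b had 431 ± 66.5 RPKM after anti-MerTK and 501 ± 56.6 RPKM after anti-gp120. The most abundant receptor transcript of these macrophages was therefore Fcgr4, which binds IgG2a and IgG2b, above both the low-affinity receptor Fcgr3 and its inhibitory counterpart. In 5 of 5 libraries of each group the order was Fcer1g, Fcgr4, Fcgr3, Fcgr2b, but the ranges of Fcgr3 and Fcgr2b overlapped in both groups.

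Fcgr1 took a different place in the 2 groups. After anti-MerTK it had 477 ± 79.1 RPKM and overlapped the range of Fcgr2b, which exceeded it in 2 of 5 libraries. After anti-gp120 it had 307 ± 46.3 RPKM and lay below Fcgr2b in 5 of 5 libraries, with ranges that did not touch. Fcgrt, which works inside the cell to rescue IgG and albumin from degradation, had 97.4 ± 9.22 RPKM after anti-MerTK and 102 ± 7.23 RPKM after anti-gp120. Syk was the lowest of the 7, at 24.5 ± 2.07 RPKM after anti-MerTK and 26.4 ± 3.57 RPKM after anti-gp120, in 5 of 5 libraries of each group. The SD of Fcgr4 was 19.98% of its mean after anti-MerTK and 31.98% after anti-gp120. That of Fcgr3 was 17.98% after anti-MerTK and 7.10% after anti-gp120, and that of Fcgrt 9.47% after anti-MerTK and 7.06% after anti-gp120.

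**Figure D1:**
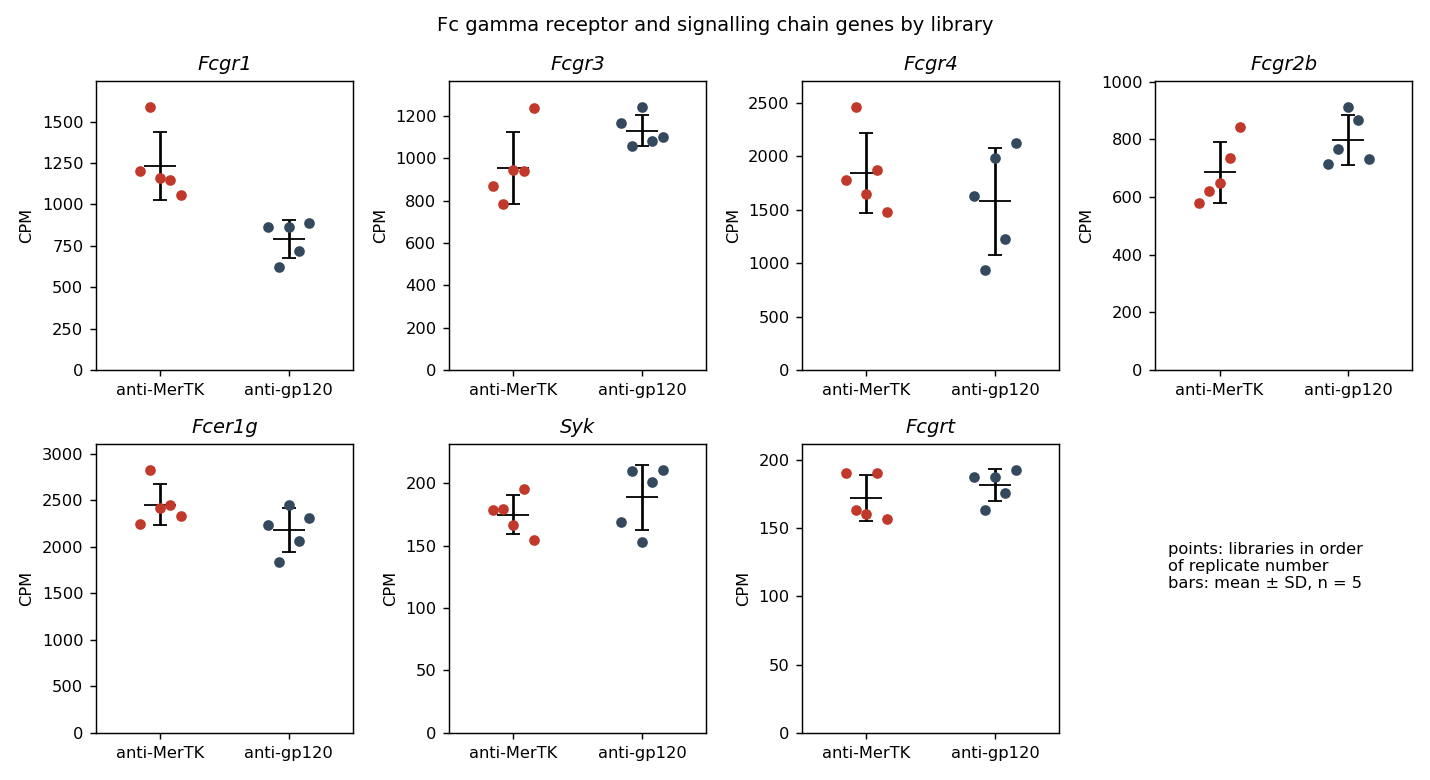
Level of each of the 7 genes in CPM (y axis, from 0) in the 5 anti-MerTK libraries (left, red) and the 5 anti-gp120 libraries (right, blue); points are libraries and bars the mean ± SD. The groups are separate for Fcgr1, from 1058 CPM upwards after anti-MerTK and up to 887 CPM after anti-gp120, and overlap for the other 6 genes.

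The comparison asks whether transcripts of the receptor system differed 24 h after the antibody against MerTK. Of the 7 genes 1 rose, Fcgr1, and 0 fell, in edgeR's quasi-likelihood test at a Benjamini-Hochberg adjusted p under 0.05 over all 13588 tested genes. Of all tested genes 3.22% passed in either direction and 1.85% were higher. The median log2 fold change of the 7 genes was -0.07, against -0.01 over all tested genes, with 3 positive and 4 negative estimates. Across the family the transcripts thus did not move one way: Fcgr1, Fcgr4 and Fcer1g had positive estimates, and Fcgr3, Fcgr2b, Syk and Fcgrt negative ones. In bulk samples, a change in the share of cells of a kind and a change in RNA per cell cannot be told apart.

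Fcgr1 (chromosome 3, 96282909 to 96293969), the high-affinity receptor that binds monomeric IgG, had 1200.0, 1586, 1159, 1147 and 1058 CPM in the 5 anti-MerTK libraries, against 866, 624, 863, 718 and 887 CPM in the 5 anti-gp120 libraries. The lowest anti-MerTK library lay above the highest anti-gp120 library, and anti-MerTK replicate 2 stood above the rest of its group. Groups without overlap were found for 5.97% of all tested genes, 3.26% with anti-MerTK higher and 2.71% with anti-MerTK lower. Fcgr1 rose by a log2 fold change of 0.64 (SE 0.13, 95% interval 0.36 to 0.91), which is 1.55-fold, with an edgeR adjusted p = 0.0247. The call was kept in 6 of the 10 fits that left out 1 library and lost in the others. The adjusted p was 0.0554 and 0.0781 without anti-gp120 replicates 2 and 4, and 0.0624 and 0.0575 without anti-MerTK replicates 1 and 3, while the log2 fold change stayed between 0.53 and 0.68 over all 10 fits that left out 1 library. Without anti-MerTK replicates 2 and 5 together it was 0.56 (edgeR adjusted p = 0.0428). Of the marker sums given above, those of endothelial cells did not overlap between groups and those of monocytes and dendritic cells did, and their part in the Fcgr1 difference was not tested.

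Fcgr4 (chromosome 1, 171018926 to 171029761) had 1772, 2455, 1646, 1874 and 1475 CPM after anti-MerTK, against 1629, 934, 1978, 1229 and 2119 CPM after anti-gp120. The anti-gp120 libraries ranged more than 2-fold, and 4 of 5 anti-MerTK libraries lay above their mean. The log2 fold change was 0.23 (SE 0.22, 95% interval -0.25 to 0.70, edgeR adjusted p = 0.585). The interval is wide enough to hold no difference as well as a rise of the size of that of Fcgr1, so the data do not settle whether Fcgr4 changed.

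Fcgr3 (chromosome 1, 171051169 to 171065915), the low-affinity activating receptor, had 871, 787, 943, 939.7 and 1236 CPM after anti-MerTK, against 1168, 1059.9, 1241, 1081 and 1101 CPM after anti-gp120. In 4 of 5 anti-MerTK libraries Fcgr3 lay below every anti-gp120 library, and the exception, replicate 5, was among the highest of all 10. The log2 fold change was -0.24 (SE 0.11, 95% interval -0.48 to -0.0012), with an unadjusted p = 0.0490 and an edgeR adjusted p = 0.236. At an unadjusted p under 0.05, 20.9% of all tested genes passed. Without anti-MerTK replicate 5 the log2 fold change was -0.35 and passed the test (edgeR adjusted p = 0.0405).

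Fcgr2b (chromosome 1, 170960558 to 170976071), the inhibitory receptor, had 581, 621, 648, 736 and 844 CPM after anti-MerTK, against 714, 767, 911, 867 and 733 CPM after anti-gp120. Here 3 of 5 anti-MerTK libraries lay below every anti-gp120 library, and replicate 5 was again the highest of its group. The log2 fold change was -0.22 (SE 0.11, 95% interval -0.46 to 0.02) and did not pass (edgeR adjusted p = 0.278). Fcgr2b and Fcgr3 are close copies in their ligand-binding part: the best alignment of their longest GENCODE M21 transcripts covers 509 bases, of which 491 (96.5%) are identical. Of all 50-base windows, 12.8% of those in Fcgr3 and 11.4% of those in Fcgr2b also occur in a transcript of another gene, and at 100 bases 3.53% and 3.54%. The shared windows of Fcgr3 occur in Fcgr2b only, while those of Fcgr2b occur in Fcgr3 and in further genes, such as Gm4117. Because the authors counted only reads that align uniquely, reads from these stretches could be lost or split, so the levels of both genes are uncertain and may be too low. At 50 bases, 0 windows of Fcgr1, Fcgr4, Fcer1g, Fcgrt or Syk were shared. A GENCODE antisense gene also overlaps the 5′ end of Fcgr2b, and whether counting used strand is not given in the sources used here.

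Fcer1g (chromosome 1, 171229572 to 171234349), the ITAM-bearing gamma chain, had 2250.0, 2827, 2415, 2446 and 2334 CPM after anti-MerTK, against 2233, 1838, 2450.5, 2068 and 2309.9 CPM after anti-gp120. All 5 anti-MerTK libraries lay above the anti-gp120 mean, but the groups overlapped. The log2 fold change was 0.17 (SE 0.10, 95% interval -0.04 to 0.38, edgeR adjusted p = 0.327). The interval excludes a rise as large as the estimate for Fcgr1.

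Syk (chromosome 13, 52582610 to 52648792) had 179, 179.5, 166, 195 and 154 CPM after anti-MerTK, against 169, 209.5, 153, 201 and 211 CPM after anti-gp120. Its anti-MerTK libraries all lay within the anti-gp120 range. The log2 fold change was -0.11 (SE 0.10, 95% interval -0.33 to 0.11, edgeR adjusted p = 0.564). Fcgrt (chromosome 7, 45092993 to 45103822) had 190.2, 162.98, 160.4, 190.4 and 157 CPM after anti-MerTK, against 187, 163.4, 188, 176 and 193 CPM after anti-gp120. Its groups overlapped, though 3 of 5 anti-MerTK libraries lay below every anti-gp120 library, 1 of them narrowly. The log2 fold change was -0.07 (SE 0.08, 95% interval -0.24 to 0.10, edgeR adjusted p = 0.624). B2m, the light chain that Fcgrt pairs with and named for that role, was among the most abundant transcripts at 7906 ± 743 CPM after anti-MerTK and 7409 ± 748 CPM after anti-gp120, with a log2 fold change of 0.09 (edgeR adjusted p = 0.626).

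**Figure D2:**
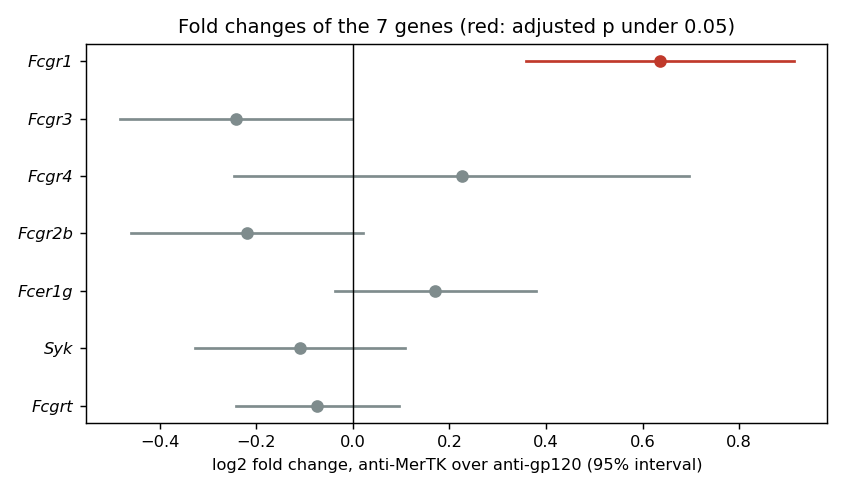
Log2 fold change of each gene, anti-MerTK over anti-gp120 (x axis), as a point with its 95% interval, with Fcgr1 in red as the gene that passed. The interval of Fcgr1 runs from 0.36 to 0.91 and is clear of 0, that of Fcgr3 ends at -0.0012, and the other 5 intervals include 0.

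The ratio of activating to inhibitory receptor transcripts was taken within each library, which removes differences in library size. These ratios are descriptions, since the genes were chosen with earlier results known. Fcgr1 over Fcgr2b, in RPKM, was 1.28, 1.58, 1.104, 0.962 and 0.774 after anti-MerTK, against 0.749, 0.502, 0.585, 0.511 and 0.747 after anti-gp120. All 5 anti-MerTK ratios lay above all 5 anti-gp120 ratios, by a margin that was narrow for anti-MerTK replicate 5. The groups were already separate for Fcgr1 alone, and Fcgr2b did not pass, so this separation is not independent of the Fcgr1 result. On the log2 scale the ratio averaged 0.14 ± 0.39 after anti-MerTK and -0.71 ± 0.28 after anti-gp120, a difference of 0.86. Fcgr3 over Fcgr2b was close to even in both groups, at 0.21 ± 0.12 after anti-MerTK and 0.24 ± 0.15 after anti-gp120 on the log2 scale. Fcgr4 over Fcgr2b was 1.77 ± 0.43 after anti-MerTK and 1.28 ± 0.52 after anti-gp120 on that scale, with overlapping groups. The ratio of Fcgr1 to Fcgr4, added after the values were seen, was -1.63 ± 0.09 after anti-MerTK and -1.99 ± 0.28 after anti-gp120 on the log2 scale, also with overlap.

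**Figure D3:**
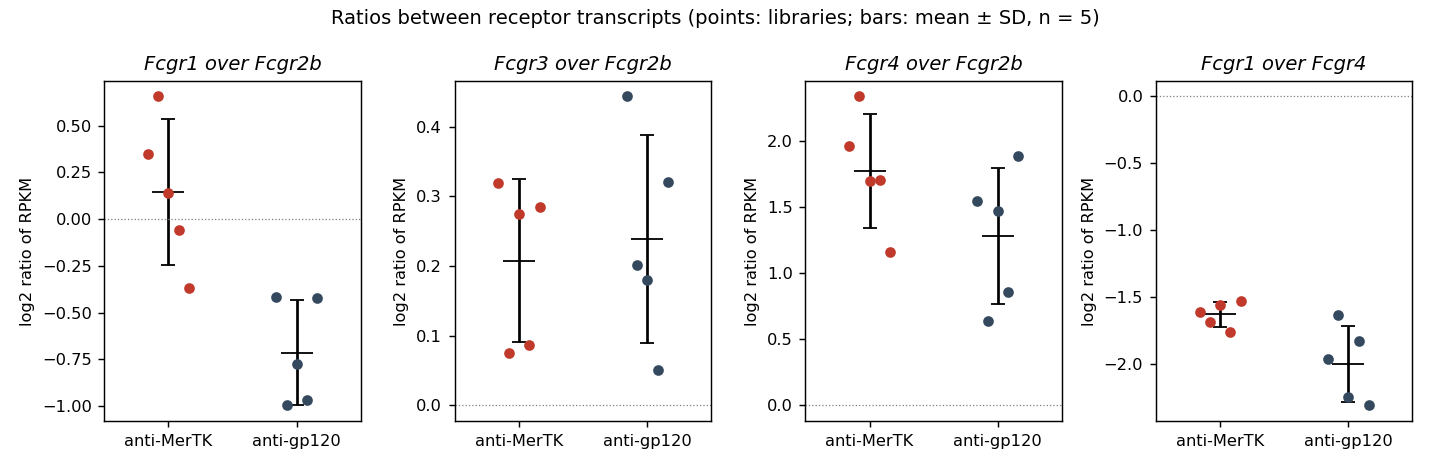
Log2 ratio of RPKM between 2 receptor transcripts within each library (y axis, a separate scale per panel) for anti-MerTK (left, red) and anti-gp120 libraries (right, blue), with the mean ± SD of 5 libraries. Fcgr1 over Fcgr2b averages 0.14 after anti-MerTK and -0.71 after anti-gp120 without overlap, and Fcgr1 alone is also without overlap. Fcgr3 over Fcgr2b averages 0.21 after anti-MerTK and 0.24 after anti-gp120.

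Within the groups, Fcgr1, Fcgr4 and Fcer1g varied together. After subtracting each group's mean log2 CPM, Fcgr1 correlated with Fcgr4 at Pearson r = 0.92 and with Fcer1g at r = 0.90 over the 10 libraries, and Fcgr4 with Fcer1g at r = 0.92. Spearman's rho was 0.94, 0.82 and 0.88 for these pairs, and r was 0.91, 0.76 and 0.90 without the 2 libraries farthest out. For all 3 genes, anti-MerTK replicate 2 was the highest of its group and anti-gp120 replicate 2 the lowest of its own. Fcgr1 and Fcgr2b had r = -0.38 and a rho of -0.59, and r was -0.50 without the 2 libraries farthest out. Fcgr2b and Fcgr3 had r = 0.74 and a rho of 0.56. That r leaned on 2 libraries, anti-MerTK replicate 5 and anti-gp120 replicate 3, without which it was 0.24. Pairs with Fcgr3 also depended on single libraries: without anti-MerTK replicates 2 and 5, its r with Fcer1g was 0.83, against -0.09 over all 10 libraries, and its r with Fcgr4 was 0.58, against -0.18. Fcgr3 and Syk had r = -0.63, and -0.80 without those libraries. These values describe the same 10 libraries, whose depth and scaling the genes share, and carry no test.

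**Figure D4:**
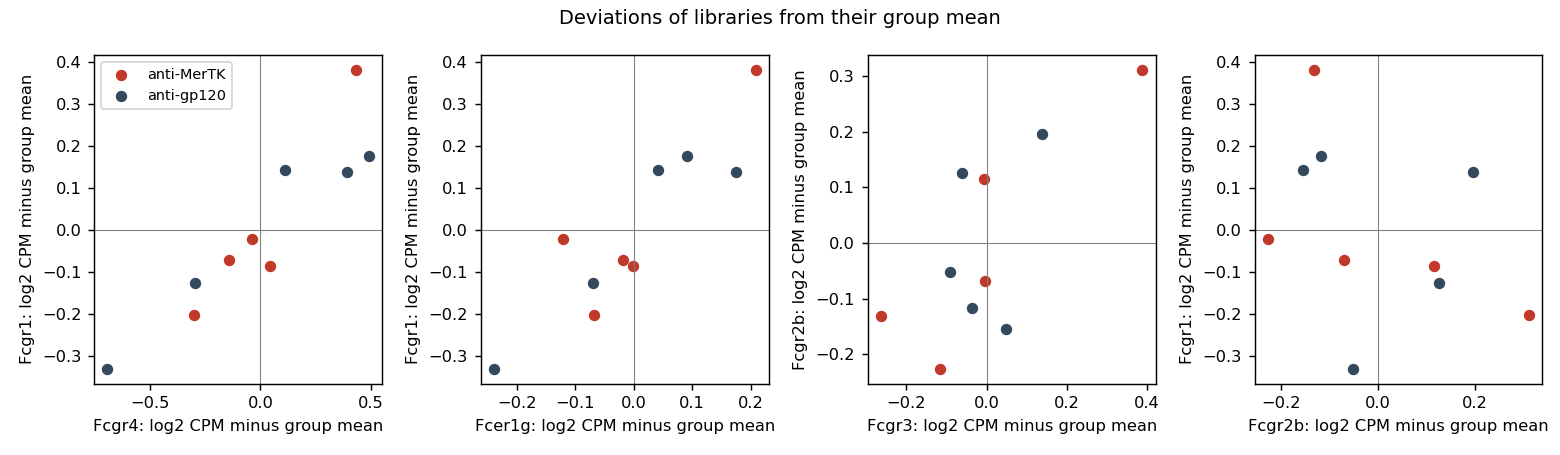
Deviation of each library from its group's mean log2 CPM for pairs of genes (1 point per library, anti-MerTK in red, anti-gp120 in blue). Fcgr1 lines up with Fcgr4 (r = 0.92) and Fcer1g (r = 0.90), while Fcgr1 against Fcgr2b slopes downwards (r = -0.38). The r of Fcgr2b with Fcgr3 leans on anti-MerTK replicate 5 and anti-gp120 replicate 3.

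Among 8332 other genes whose log2 CPM averaged 3 or more, those whose deviations were most like each receptor were named by rank. They are the highest of 8332 correlations over only 10 libraries, so high values can arise by selection alone, and none was tested. Closest to Fcgr1 were Rbm43 (r = 0.99), Trim34a (r = 0.98), of the TRIM ubiquitin ligase family, and Phf11a (r = 0.98), and Trim34a and Phf11a also rose after anti-MerTK, by log2 fold changes of 0.65 and 1.39 (edgeR adjusted p = 0.0206 and 0.0115). Closest to Fcgr4 were Psmb8, an immunoproteasome subunit (r = 0.98), Dusp10, a MAP kinase phosphatase (r = 0.97), and Calhm6 (r = 0.97), none of which passed the treatment test. For Fcer1g they were Nmi, an interferon-induced protein (r = 0.98), M6pr, which sorts lysosomal enzymes (r = 0.96), and the inflammatory caspase Casp1 (r = 0.95). Nmi rose, by a log2 fold change of 0.46 (edgeR adjusted p = 0.0430). The inhibitory receptor had other neighbours: Fcgr2b was followed by Sh3glb1 (r = 0.97), the lysosomal membrane protein Lamp1 (r = 0.97) and Tmem123 (r = 0.96). Fcgr3 was followed by the fatty acid binding protein Fabp5 (r = 0.96), Edem1 (r = 0.96) and Dap (r = 0.95), Syk by the focal adhesion adaptor Pxn (r = 0.98), Samd4b (r = 0.97) and Mlxip (r = 0.95), and Fcgrt less closely by Lrrc41 (r = 0.87), Pigo (r = 0.87) and Zfp84 (r = 0.86).

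Fcgr2b, Fcgr4, Fcgr3 and Fcer1g lie in 274 kb of chromosome 1 (170960558 to 171234349), while Fcgr1, the gene that rose, lies on chromosome 3. In that stretch 10 of 15 annotated genes were tested and 0 passed in edgeR, and Fcgr3 alone of the 4 receptor system genes there had an unadjusted p under 0.05. The 6 other tested genes there had log2 fold changes from -0.50 to 0.36.

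Downstream signalling genes were called at a share near that of all genes. Of 59 tested genes for Src family kinases, adaptors, effectors and inhibitors, 0 were higher and 2 lower in edgeR, where 3.22% of all tested genes were called and 1.38% were lower. Their median log2 fold change was -0.03. An unadjusted p under 0.05 was found for 15 of the 59, and for 20.9% of all tested genes. Both lower genes belong to the 12 tested inhibitory genes, of which DESeq2 called 5 and limma-voom 4. Over all genes, DESeq2 called 9.01% and limma-voom 7.41%. Of these 12 genes, 4 had groups without overlap, where 5.97% of all tested genes did. Among the 12, 6 had an unadjusted p under 0.05, with 3 positive and 3 negative estimates. The positive ones, named after their values were seen, were the phosphatase Ptpn6 and the adaptors Dok1 and Dok2, with log2 fold changes of 0.29, 0.42 and 0.70 that did not pass (edgeR adjusted p = 0.160, 0.0889 and 0.150). Cbl, a ubiquitin ligase that targets activated receptors and Syk for degradation, fell to 62.5 ± 3.44 CPM after anti-MerTK, against 90.4 ± 18.5 CPM after anti-gp120 (log2 fold change -0.53, SE 0.12, edgeR adjusted p = 0.0337). Rasa1, a GTPase-activating protein that turns Ras off, fell to 31.4 ± 1.21 CPM after anti-MerTK, against 40.3 ± 4.40 CPM after anti-gp120 (log2 fold change -0.36, SE 0.08, edgeR adjusted p = 0.0309). Neither gene's groups overlapped. Both calls were lost without anti-gp120 replicates 2 or 4 or anti-MerTK replicates 1, 2, 3 or 4 (adjusted p from 0.0546 to 0.0937), and in 8 libraries, without anti-MerTK replicates 2 and 5 (edgeR adjusted p = 0.130 and 0.0930). Inpp5d, the phosphatase recruited by Fcgr2b and named for that role, had 398 ± 36.3 CPM after anti-MerTK and 409.9 ± 43.9 CPM after anti-gp120 (log2 fold change -0.04, edgeR adjusted p = 0.822).

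Src family kinases and their controls had 0 calls of 11 in edgeR, with 3 at an unadjusted p under 0.05, and 3 calls each in DESeq2 and limma-voom, which called 9.01% and 7.41% of all genes. Csk, the kinase that holds Src family kinases inactive, had 360.3 ± 32.6 CPM after anti-MerTK and 288 ± 28.2 CPM after anti-gp120 (log2 fold change 0.32, SE 0.09, edgeR adjusted p = 0.0658). Pag1, the membrane adaptor that anchors it, had 39.4 ± 3.66 CPM after anti-MerTK and 52.9 ± 9.86 CPM after anti-gp120 (log2 fold change -0.42, SE 0.12, edgeR adjusted p = 0.0743). Without anti-gp120 replicate 5 or anti-MerTK replicate 5, Csk passed (edgeR adjusted p = 0.0274 and 0.0284), as did Pag1 without anti-gp120 replicate 1 (0.0361). The other fits that left out 1 library gave edgeR adjusted p from 0.0852 to 0.161 for Csk and from 0.0633 to 0.187 for Pag1. Adaptors, effector enzymes and actin regulators had 0 calls of 36 in edgeR, with 6 at an unadjusted p under 0.05, 1 call in DESeq2 and 2 in limma-voom. Sh3bp2, an adaptor that binds Syk, lay just outside the threshold, at 214 ± 30.3 CPM after anti-MerTK and 163 ± 13.8 CPM after anti-gp120 (log2 fold change 0.39, SE 0.10, edgeR adjusted p = 0.0505). It passed without anti-gp120 replicate 5 or anti-MerTK replicate 5 (edgeR adjusted p = 0.0398 and 0.0279). In the other fits that left out 1 library its edgeR adjusted p was 0.0573 to 0.142. Pik3cb, a catalytic subunit of PI3 kinase, had a log2 fold change of -0.23 (edgeR adjusted p = 0.102) and passed without anti-MerTK replicate 5 (0.0356). For Pik3cb the other fits that left out 1 library gave an edgeR adjusted p of 0.114 to 0.236. The 5 subunits of the NADPH oxidase, which makes the oxidative burst, had 0 calls in edgeR, DESeq2 and limma-voom and 0 at an unadjusted p under 0.05, with log2 fold changes from -0.13 to 0.16. The smallest p was that of Cyba, at a log2 fold change of 0.16.

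Of 13 other Fc receptor and receptor-like genes, 6 were abundant enough to be tested and 0 were called in edgeR, with 2 at an unadjusted p under 0.05 and 1 call each in DESeq2 and limma-voom. Trim21, the cytosolic receptor for antibody bound to viruses, had 38.1 ± 10.01 CPM after anti-MerTK and 25.4 ± 4.35 CPM after anti-gp120 (log2 fold change 0.58, SE 0.17, edgeR adjusted p = 0.0839). It passed without anti-MerTK replicate 5 (0.0490). Fcrla was barely detected, at 0.309 ± 0.0803 CPM after anti-MerTK and 0.512 ± 0.103 CPM after anti-gp120 (edgeR adjusted p = 0.140). Fcer1a and Ms4a2, the alpha and beta chains of the IgE receptor, were among the untested genes, with Ms4a2 at 0 and Fcer1a under 0.1 CPM in all libraries. Of 15 tested ITAM adaptors and partner receptors, 0 were higher and 1 was lower in edgeR, where 1.38% of all tested genes were lower, and 2 had an unadjusted p under 0.05, where 20.9% of all did. The lower gene was Cd247, the zeta chain of T and NK cell receptors, with 3.84 ± 0.481 CPM after anti-MerTK and 5.65 ± 0.910 CPM after anti-gp120 (log2 fold change -0.56, SE 0.14, edgeR adjusted p = 0.0483). Its call was lost without anti-gp120 replicates 1, 2 or 4 or anti-MerTK replicates 1, 2, 3 or 4 (adjusted p from 0.0654 to 0.137). T cell markers summed to 0.710 to 4.65 CPM after anti-MerTK and 1.04 to 3.16 CPM after anti-gp120, and their part in the Cd247 difference was not tested. Trem1, an amplifier of myeloid inflammation, had a log2 fold change of -0.58 (SE 0.23, edgeR adjusted p = 0.180).

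Genes known to set Fc receptor levels had 0 of 23 tested members higher and 2 lower in edgeR, where 1.85% of all tested genes were higher and 1.38% lower. DESeq2 and limma-voom each called 3, and 4 of the 23 had an unadjusted p under 0.05, where 20.9% of all tested genes did. Ifngr1, the ligand-binding chain of the interferon gamma receptor, fell to 186 ± 22.5 CPM after anti-MerTK, against 252 ± 31.2 CPM after anti-gp120 (log2 fold change -0.43, SE 0.10, edgeR adjusted p = 0.0449). Tgfbr1, the type I receptor of TGF-beta, fell to 536 ± 62.2 CPM after anti-MerTK, against 767 ± 134 CPM after anti-gp120 (log2 fold change -0.52, SE 0.12, edgeR adjusted p = 0.0453). For both genes, 4 of 5 anti-MerTK libraries were lower than every anti-gp120 library, and the groups overlapped. Both calls were lost without anti-gp120 replicates 2, 3 or 4 or anti-MerTK replicates 1, 2 or 3 (adjusted p from 0.0764 to 0.128), and that of Tgfbr1 also without anti-MerTK replicate 4 (0.0546). Without anti-MerTK replicates 2 and 5 together, the edgeR adjusted p was 0.121 for Ifngr1 and 0.149 for Tgfbr1. Spi1, the gene of PU.1 and named for that role, had a log2 fold change of 0.28 (edgeR adjusted p = 0.0999). Ifng itself was too low to be tested.

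**Figure D5:**
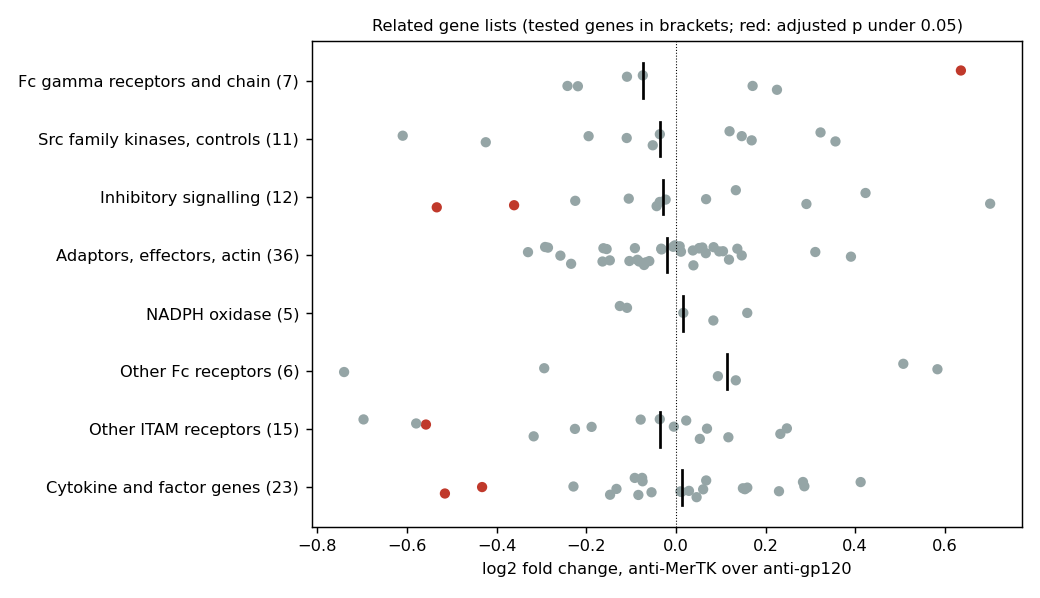
Log2 fold change, anti-MerTK over anti-gp120 (x axis), of each tested gene by list (rows, tested genes in brackets), with genes past the threshold in red and the median of each list as a black bar. Fcgr1 at 0.64 is the red point on the right, while Cbl, Rasa1, Cd247, Ifngr1 and Tgfbr1, from -0.36 to -0.56, are those on the left, and the medians lie between -0.07 and 0.11.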

How the data were processed

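RNA-seq of polyadenylated RNA gave 10 libraries, 5 per antibody by the treatment label. Replicate numbers follow accession order and pair nothing. The authors aligned reads with GSNAP to GRCm38, per the submitters' processing notes. Deposited counts are reads aligning uniquely to gene models named by Entrez identifier, per the file headers, and per those headers the deposited RPKM values were adjusted by a library size factor. Symbols came from RefSeq (GRCm38.p6), which named 31049 of 36528 identifiers, and 78 more from GENCODE M21. Unnamed genes stayed in library sizes (2.14% to 2.65% of counts) and tests. No 2 libraries agreed within sampling noise (chi-square per degree of freedom at least 29.0).

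Counts were tested with edgeR 4.0.16 (quasi-likelihood, TMM, filterByExpr, robust, treatment only; R 4.3.3), two-sided, adjusted over 13588 genes at 0.05, and checked on simulated counts. The SE is the log2 fold change over the square root of F, and 95% intervals use the t distribution. CPM uses TMM sizes, and group-centred correlations use log2 CPM with a prior count of 2. Alternatives used RLE, upper quartile and the authors' size factors, other filters, DESeq2 1.42.0, limma-voom (limma 3.58.1), a threshold of 0.01, and fewer libraries. Named are the 7 genes, Mertk, and per list those that passed and the 2 of smallest p, apart from items not reported here; others are named for a stated role, after their values were seen. The genes and the 7 related lists (118 entries, 1 without a match) were chosen with earlier results of these data known.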

Additional observations from a re-analysis of the deposited data

Results flagged for a closer look

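Of 52 groups of 5 libraries checked for a library far from the rest, 3 had one, where chance flags about 1 in 20. Fcgr1 stood at 1586 CPM in anti-MerTK replicate 2, above the other 4 anti-MerTK libraries, and without that library its log2 fold change was 0.53 (edgeR adjusted p = 0.0440). Csk stood at 337.5 CPM in anti-gp120 replicate 5, above the other 4 libraries of that group. Mertk stood at 70.5 CPM in anti-MerTK replicate 3, below the other 4.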

How the results depend on the processing

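No direction of the 7 genes reversed in any of the alternatives. At an adjusted p under 0.01, Fcgr1 (log2 fold change 0.64, adjusted p = 0.0247) was not called, and the number of the 7 called was 0. In the 8 other settings that kept 8 or 10 libraries its adjusted p lay between 0.000174 and 0.0428. Leaving out each library in turn, log2 fold changes ranged from 0.53 to 0.68 for Fcgr1 (called in 6 of 10 fits), from -0.35 to -0.18 for Fcgr3 (called in 1), and the number of the 7 called from 0 to 2. Over the same 10 fits the calls ranged from 0 to 2 for Src family kinases and controls (main value 0) and for adaptors and effectors (0), from 0 to 3 for inhibitory genes (2), from 0 to 1 for other Fc receptors (0) and for ITAM partners (1), and from 0 to 3 for cytokine and factor genes (2). DESeq2 called 3, 1, 5 and 1 genes of the Src, adaptor, inhibitory and other Fc receptor lists, and limma-voom 3, 2, 4 and 1. The adaptor list had 1 call (Sh3bp2) with RLE, upper quartile normalization, no filter and the 5 CPM filter. At 0.01, and in 8 libraries, the inhibitory, ITAM partner and cytokine lists had 0 calls, as did the ITAM list without a filter or with the 5 CPM filter, which removes Cd247. Of 282 fits of the other named genes 43 lost a call, 20 gained one and 0 reversed, and all 22 marker sums and 14 RPKM levels moved by less than 1 SD under another scaling. No paired analysis was possible because the labels give no replicate numbers and the libraries are numbered only by accession. Each of the 7 genes had at least 5008 reads in every library, so counting error adds little to their spread.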
